A study of Mus musculus with 4 samples.

Results

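The genes described here are 47 G protein-coupled receptors of the pancreatic islet for hormones, transmitters, nucleotides and lipid mediators, taken by gene symbol from a list drawn up for this purpose. All 47 were among the 55487 genes of the table, and 38 of them passed the filter on low values, a normalized read count of 10 or more in at least 2 of the 4 libraries. The RNA was that of freshly isolated islets, groups of hormone cells set within the pancreas, from C57BL/6 mice aged 30 weeks. The 2 control libraries came from Ggcx flox/flox mice without Cre. The 2 knockout libraries came from Ggcx flox/flox; Pdx1-Cre mice, in which the Pdx1 promoter drives Cre in the pancreatic lineage, so that exocrine and endocrine cells can both recombine. Islets of 2 mice went into every library, which gives n = 2 pools for either genotype, and the floxed allele is present in both. No library combined Cre with intact Ggcx, so the transgene and the loss of Ggcx cannot be told apart. The control libraries are called here by their column numbers in the table, 2 and 3, which do not match the replicate numbers of the labels.

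G protein-coupled receptors are membrane proteins that pass the binding of an outside ligand to a G protein inside the cell. In islets, receptors coupled to Gs raise cyclic AMP and amplify insulin release that glucose has started, and receptors coupled to Gi or Go lower cyclic AMP and restrain it. Receptors coupled to Gq act through phospholipase C and calcium. The gut hormones GLP-1 and GIP, glucagon and somatostatin from neighbouring islet cells, and acetylcholine and noradrenaline from nerves all reach islet cells through such receptors.

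Ggcx, the vitamin K-dependent carboxylase that was deleted, stood at 3971 and 3981 normalized counts in control columns 2 and 3, and at 234.2 and 643.4 in knockout replicates 1 and 2. Its level was lower in both knockout pools, and replicate 2 kept more of it than replicate 1. The libraries held 47624630 to 51756221 reads assigned to genes. The defining islet hormones were abundant, with Ins2 between 6158560 and 6615640 normalized counts, Ins1 between 2771880 and 3151130 and Gcg between 1096490 and 1552090. No islet, acinar, duct, stromal, endothelial, immune or nerve marker list had a marker at 0 in every library. For this 1 read was enough, and only 1 of 7 lymphocyte markers passed the filter on low values. Acinar markers summed to 15366 and 16227 normalized counts in controls and 8322 and 12715 in knockouts. Of their 9 tested estimates 0 lay above 0, and none passed the limma threshold. Stellate cell and fibroblast markers summed to 1543 to 2048 in controls and 2443 to 3319 in knockouts. Here 7 of 7 estimates lay above 0, and Dcn passed the limma threshold. In such bulk RNA, fewer cells of a type and less RNA per cell cannot be told apart.

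Across the receptors, Adora2b was lower in knockout islets and was the only one of the 38 tested receptors to pass the test, limma on log2(value + 1) with a Benjamini-Hochberg adjusted p under 0.05 over all 16589 tested genes. None was higher at that threshold, so calls made up 2.63% of the tested receptors. Calls of any kind made up 0.621% of all genes tested, 0.374% for lower (62 genes) and 0.247% for higher (41 genes). With a common upper quartile in place of the authors' scaling these counts were 55 lower and 57 higher, and Adora2b was still the only receptor called. Without the adjustment, 6 receptors were higher and 6 lower at a limma p under 0.05, or 31.6% of the 38, where 14.1% of all tested genes had such a p. The pools of the genotypes did not overlap for 12 receptors with higher and 9 with lower knockout values, or 55.3% of the 38, against 45% of all genes tested (22% higher and 23% lower). The median log2 fold change, knockout over control, was 0.04 for the receptors and 0.00 for all tested genes. The receptors were chosen with earlier results of these data known. Their shares beside those of all genes are therefore no test of the receptors as a group. No receptor passed the filter through 1 genotype alone (0 of 38).

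Another 3 receptors came near the threshold. Crhr1 was lower, with a limma adjusted p of 0.0588, and Sstr2 and Oxtr were higher, with 0.0631 and 0.0950. A count model, DESeq2 on the recovered reads, called Adora2b and Crhr1 lower and Sstr2 and Oxtr higher, and edgeR called Adora2b alone. DESeq2 called 2.43% of the genes for which it gave an adjusted p, and edgeR 0.772%. In the authors' deposited table the adjusted p was 0.00199 for Adora2b, 0.00309 for Crhr1, 0.00568 for Oxtr and 0.0288 for Sstr2, from the same libraries. Of the 13381 genes with an adjusted p there, 314 were under 0.05. The authors' fold changes for these receptors equal those of the DESeq2 run above, so they are no separate evidence.

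**Figure D1:**
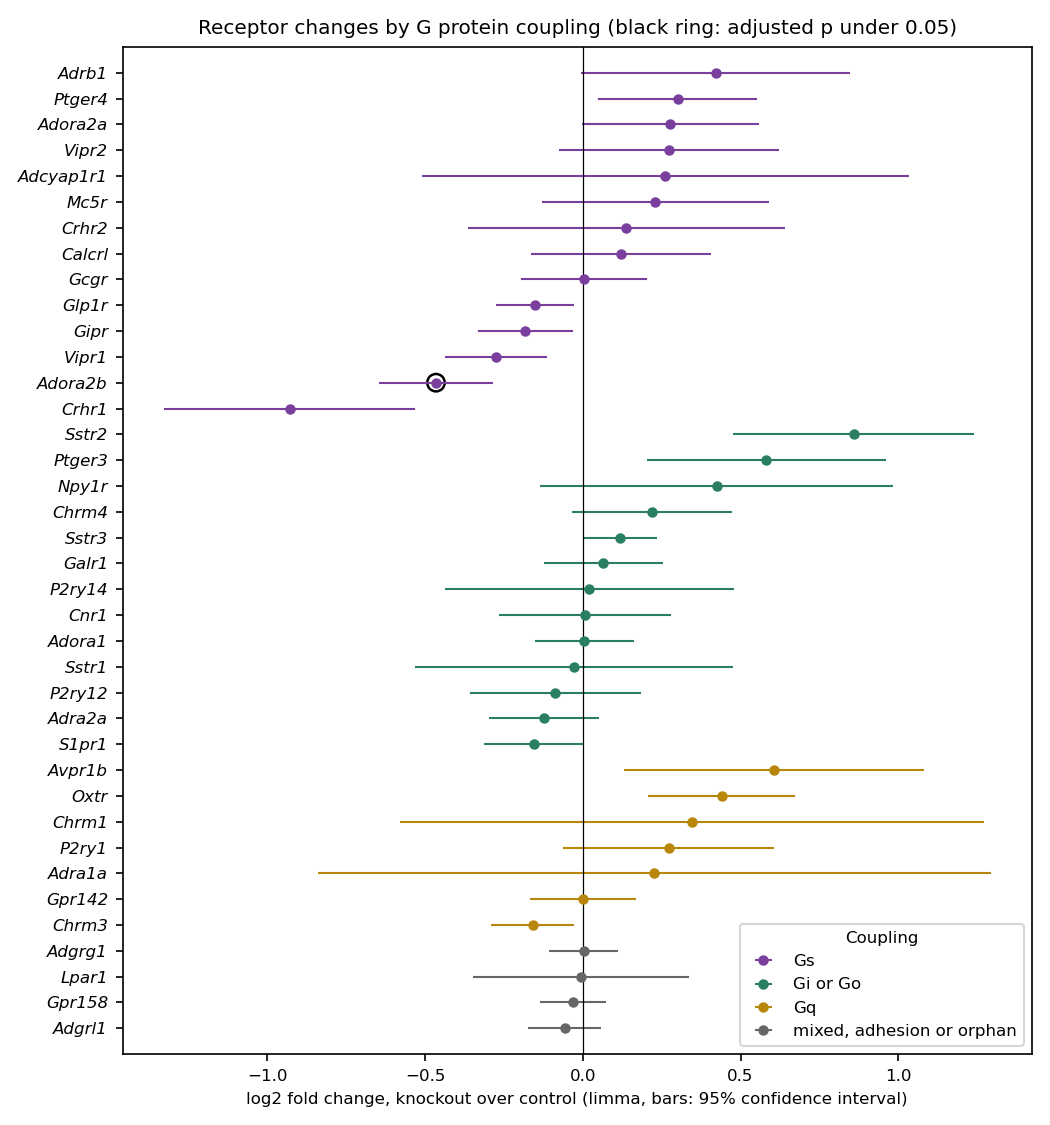
log2 fold change of each of the 38 tested receptors (x axis, knockout against control, from log2(value + 1)), grouped and coloured by the G protein to which the receptor mainly couples. Points are limma estimates, bars are 95% confidence intervals and the black ring marks the adjusted p under 0.05. Adora2b carries the only ring, Crhr1 is the lowest point at -0.93 and Sstr2 the highest at 0.86.

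By coupling, 14 of 15 Gs-coupled receptors were tested. Of these, Adora2b fell and 13 did not pass, with 5 lower and 1 higher at an unadjusted p, beside 7.34% of all genes lower and 6.74% higher. The 5 lower ones were Crhr1, Adora2b, Vipr1, Gipr and Glp1r, and the higher one was Ptger4. The median log2 fold change of the 14 was 0.13, with 9 estimates above 0 and 5 below. Of 18 receptors coupled to Gi or Go, 13 were tested and none passed the adjusted threshold in limma, with 3 higher (Sstr2, Ptger3, Sstr3) and none lower at an unadjusted p, and a median of 0.02. DESeq2 called Sstr2 among them and edgeR none. Of 10 Gq-coupled receptors, 7 were tested and none passed in limma, with Oxtr and Avpr1b higher and Chrm3 lower at an unadjusted p, and a median of 0.27. DESeq2 called Oxtr among them and edgeR none. No difference between the coupling classes was tested.

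The sequence before the transcript start is shown for 3 of the 4 receptors that DESeq2 called, because they are the receptors on which the comparison turns. For the fourth, Oxtr, the GENCODE gene starts upstream of the RefSeq start, so that the window would overlap annotated transcript, and none is shown. The windows hold the 250 bases before the RefSeq start on GRCm38.p6, 5′ to 3′ on the gene's strand. Capitals mark the cAMP response element TGACGTCA, the GC box GGGCGG and the CCAAT box CCAAT on either strand. All 3 genes lie on chromosome 11, plus strand: Sstr2 at chr11:113619077-113619326, Adora2b at chr11:62248734-62248983 and Crhr1 at chr11:104132531-104132780. The GENCODE gene starts right after the window for Adora2b (62248984), and further downstream for Sstr2 (113619342) and Crhr1 (104132855), so for these the RefSeq and GENCODE starts differ too.
Sstr2: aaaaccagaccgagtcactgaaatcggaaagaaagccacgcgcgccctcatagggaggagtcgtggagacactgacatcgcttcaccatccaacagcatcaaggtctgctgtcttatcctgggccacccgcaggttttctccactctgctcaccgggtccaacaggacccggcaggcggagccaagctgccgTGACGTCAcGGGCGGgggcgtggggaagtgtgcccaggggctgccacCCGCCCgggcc
Adora2b: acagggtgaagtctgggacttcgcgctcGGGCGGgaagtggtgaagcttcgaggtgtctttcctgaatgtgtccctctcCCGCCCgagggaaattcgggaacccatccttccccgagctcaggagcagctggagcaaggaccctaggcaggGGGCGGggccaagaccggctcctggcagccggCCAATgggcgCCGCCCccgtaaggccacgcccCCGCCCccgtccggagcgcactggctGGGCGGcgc
Crhr1: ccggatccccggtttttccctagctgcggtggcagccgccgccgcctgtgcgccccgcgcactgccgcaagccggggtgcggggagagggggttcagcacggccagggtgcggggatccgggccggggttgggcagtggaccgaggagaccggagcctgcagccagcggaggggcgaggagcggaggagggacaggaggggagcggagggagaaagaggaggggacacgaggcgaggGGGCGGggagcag

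The Sstr2 window held 1 full cAMP response element, starting 58 bases before the start. The element reads the same on both strands, and it contains the shorter half-site TGACG on each of them. It stands in 1.55% of the 32851 promoter windows of the table. Of the 36 receptors with a window, Sstr2 was the only 1 to hold it. The GC box occurred 6 times before Adora2b, 2 times before Sstr2 and 1 time before Crhr1, and stands in 32.7% of all windows. It was found for 24 of the 36 receptors with a window, a count by gene, whereas the share of all windows is by window. G and C made up 69.6% of the Adora2b window, 63.6% for Sstr2 and 74.8% for Crhr1, beside a median of 52.4% over all windows. The CCAAT box, in 33.8% of all windows, occurred 1 time before Adora2b. The TATA box TATAAA, in 12.4% of all windows, was found in none of the 3. These matches describe letters in a window and are not binding sites.

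Levels of different receptors were compared per kilobase of merged exons, in normalized counts. Glp1r, the receptor for the incretin GLP-1, was the highest, at 5183 and 5005 per kilobase in control columns 2 and 3 and 4417 and 4758 in knockout replicates 1 and 2. Sstr3, a somatostatin receptor, came next with 3298 to 3739 over the 4 libraries and lay below Glp1r in all of them. The adrenergic receptor Adra2a, at 2836 to 3490 per kilobase, overlapped Sstr3. The adhesion receptor Adgrg1 (2050 to 2155) and the ADP receptor P2ry1 (1376 to 2072) overlapped each other. These 5 receptors made up 66.3% and 65.0% of the summed per-kilobase level of all 47 in controls and 65.9% and 66.6% in knockouts.

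Below these, 16 receptors had control means of 100 to 1000 per kilobase, 13 had 10 to 100 and 13 had less than 10. Within the middle group the order ran from Gpr158 through Gipr, Adora2b, Vipr1, Gpr142, Chrm3 and Galr1 to P2ry12. Of 46 neighbouring pairs in the whole order, only 12 had ranges over the 4 libraries that did not overlap. Ranges that overlap do not exclude a fixed order within libraries, and Gpr158 lay above Gipr in each of the 4.

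**Figure D2:**
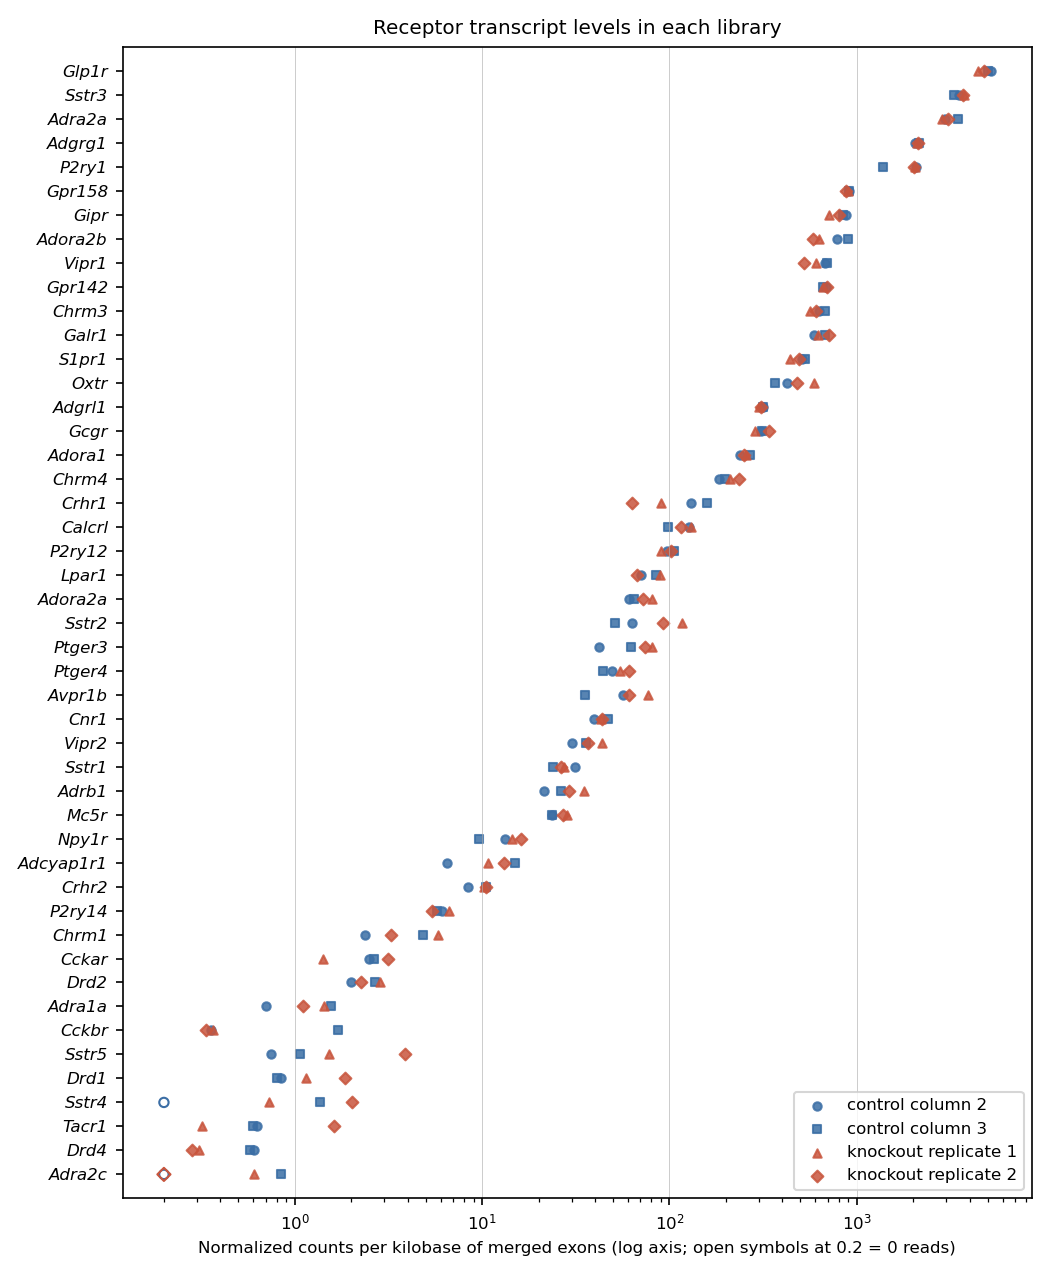
Level of each of the 47 receptors in each library (x axis, normalized counts per kilobase of merged exons, log axis), ordered by control mean; symbols stand for libraries, blue for control and red for knockout, and open symbols drawn at 0.2 stand for 0 reads. Glp1r is the highest at about 4417 to 5183, and the knockout symbols of Crhr1 lie to the left of, and those of Sstr2 to the right of, the control symbols.

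Receptors coupled to Gs together took 34.8% and 34.9% of the summed per-kilobase level in controls and 31.1% and 31.7% in knockouts. Those coupled to Gi or Go took 34.9% and 37.2% in controls and 37.0% and 37.4% in knockouts. The share of Glp1r alone was 21.8% and 21.2% in controls and 19.2% and 20.3% in knockouts. Gs-coupled receptors therefore took a smaller share in both knockout pools than in both control pools. Yet 9 of the 14 tested ones had a log2 fold change above 0, and 5 had one below. Gq-coupled receptors took 16.3% and 13.2% in controls and 17.2% and 16.5% in knockouts. P2ry1, low in control column 3, made up 8.70% and 5.84% in controls. These shares are descriptive and were not tested.

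Among the purine receptors, Adora2b, the low-affinity adenosine receptor that couples to Gs, stood at 1443 and 1657 normalized counts in controls and 1160 and 1080 in knockouts. Both knockout pools lay below both control pools. Its mean fell from 1550 ± 152 to 1120 ± 57.1 (SD, n = 2 each), a log2 fold change of -0.47 ± 0.08 (SE; limma adjusted p = 0.0475). The adjusted p ranged from 0.00195 to 0.380 over the settings tried, and it missed the threshold without the mean-variance trend (0.380), with no filter on low values (0.224) and with a filter at 50 (0.0597). Leaving out control column 3 also ended the call, at -0.37 (limma adjusted p = 0.0758).

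The other adenosine receptors did not pass. Adora1, which couples to Gi, stood at 1385 and 1547 normalized counts in controls and 1482 and 1454 in knockouts, with a 95% confidence interval of -0.15 to 0.16 for the log2 fold change. Adora2a, which couples to Gs, stood at 187.0 and 197.8 in controls and 247 and 221 in knockouts, so the pools did not overlap, at 0.28 ± 0.12 (limma adjusted p = 0.361). Within a library, the per-kilobase level of Adora2b was 12.8 and 13.9 times that of Adora2a in controls, and 7.81 and 8.13 times in knockouts.

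The ADP receptor P2ry1 was uneven between the controls, with 8892 and 5906 normalized counts, beside 8826 and 8671 in the knockouts. Control column 3 alone was low, and the log2 fold change was 0.27 ± 0.15 with all libraries (limma adjusted p = 0.468). It was 0.57 without control column 2 and -0.02 without control column 3, so the direction rests on a single control pool. P2ry12, another ADP receptor, stood at 229.0 to 270 over the 4 libraries and P2ry14, a receptor for UDP-glucose, at 59.5 to 73.9, with overlapping genotypes for both. Exons of P2ry1 and P2ry12 overlap those of other tested genes on the opposite strand, and no source used here says whether reads were counted by strand.

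Class B receptors for peptide hormones gave 4 of 9 tested members lower and none higher at an unadjusted limma p, beside 7.34% of all tested genes lower and 6.74% higher, with none past the adjusted threshold in limma or edgeR and 1, Crhr1, in DESeq2. Crhr1 is a receptor for corticotropin-releasing hormone and urocortins that mouse beta cells carry. It stood at 320 and 389 normalized counts in controls and 221 and 154 in knockouts. Both knockout pools lay below both control pools, and its log2 fold change of -0.93 ± 0.18 was the lowest of all the tested receptors, with a 95% confidence interval of -1.33 to -0.53. The estimate ran from -1.19 without knockout replicate 1 to -0.67 without knockout replicate 2, each with 1 knockout pool left. With all libraries limma passed Crhr1 in no setting.

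The related receptor Crhr2, which prefers urocortins, stood at 42.9 and 53.6 normalized counts in controls and 52.0 and 53.7 in knockouts, with no separation of the genotypes. Per kilobase, Crhr1 was 15.5 and 15.1 times Crhr2 in controls and 8.82 and 5.98 times in knockouts.

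Vipr1, which binds VIP and PACAP, stood at 3929 and 4001 normalized counts in controls and 3533 and 3039 in knockouts. Both knockout values were lower, at -0.27 ± 0.07 (limma adjusted p = 0.118). Without knockout replicate 1 it was -0.38, and without knockout replicate 2 it was -0.17. Vipr2, its sister receptor, leaned the other way, at 134.9 and 161 in controls and 194 and 164 in knockouts, with 0.27 ± 0.15 (limma adjusted p = 0.486). The PACAP receptor Adcyap1r1 stood at 42.9 and 98.4 in controls and 70.8 and 86.3 in knockouts, and its controls enclosed both knockouts.

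The incretin receptors were slightly lower in both knockout pools without passing the test. Glp1r stood at 30119 and 29083 normalized counts in controls and 25668 and 27648 in knockouts, a log2 fold change of -0.15 ± 0.05 (limma adjusted p = 0.254) with a 95% confidence interval of -0.28 to -0.03. Gipr, the GIP receptor, stood at 3058 and 2936 in controls and 2484 and 2803 in knockouts, at -0.18 ± 0.07 (limma adjusted p = 0.257). Neither pair of genotypes overlapped. Leaving out 1 library moved Glp1r between -0.21 and -0.10 and Gipr between -0.27 and -0.10, in each case nearest to 0 without knockout replicate 1. The per-kilobase ratio of Glp1r to Gipr stayed between 5.90 and 6.19 in the 4 libraries.

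The glucagon receptor Gcgr, by which beta cells sense neighbouring alpha cells, stood at 809 and 821 normalized counts in controls and 754 and 886 in knockouts. The knockouts enclosed the controls, and the confidence interval of its log2 fold change ran from -0.20 to 0.20. Calcrl, which pairs with RAMP proteins to bind CGRP or adrenomedullin, stood at 624 and 481 in controls and 633 and 561 in knockouts, with overlapping genotypes.

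**Figure D3:**
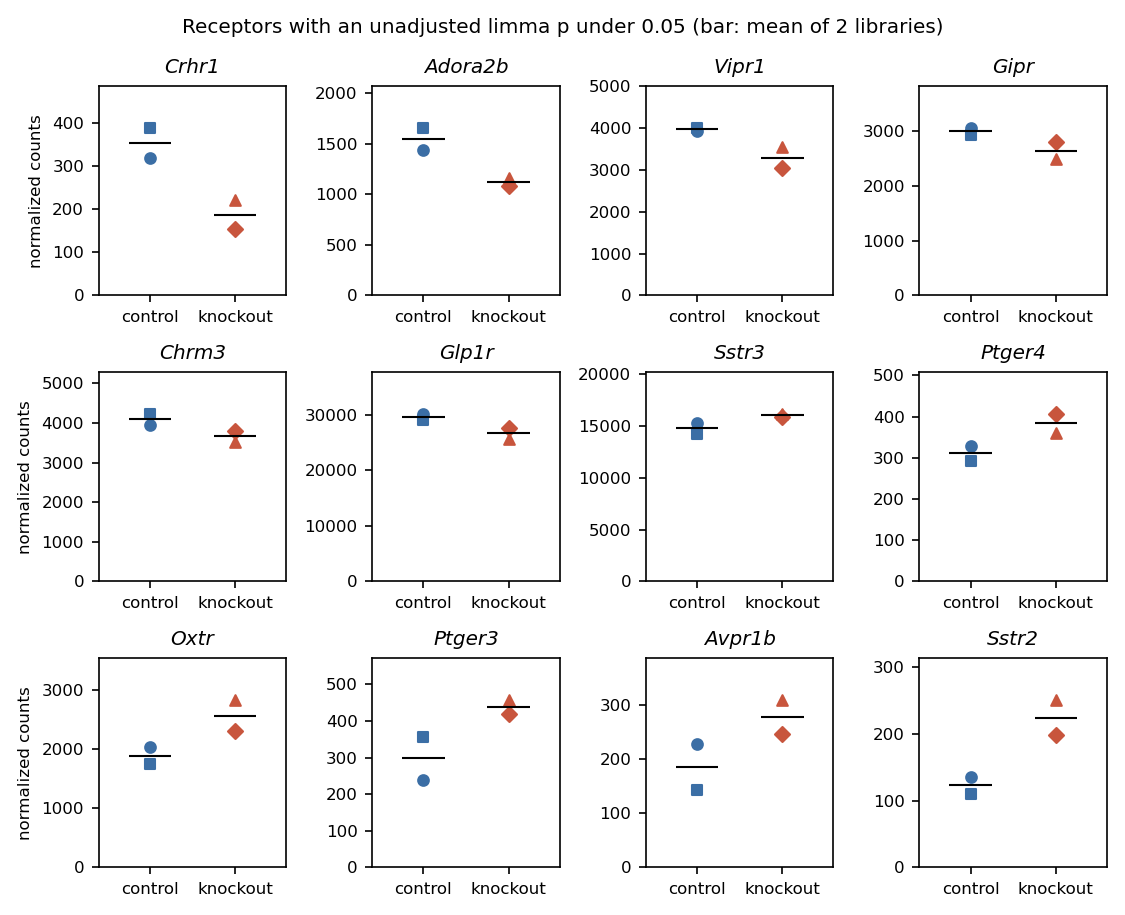
Normalized counts (y axis, from 0) of the 12 receptors with an unadjusted limma p under 0.05, in control and knockout pools; points are libraries and the bar is the mean of 2. Crhr1, Adora2b, Vipr1, Gipr, Chrm3 and Glp1r are lower and Sstr3, Ptger4, Oxtr, Ptger3, Avpr1b and Sstr2 higher, with no overlap between genotypes in any panel.

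Somatostatin, galanin and neuropeptide Y receptors couple to Gi or Go and restrain hormone release. Sstr2, the somatostatin receptor that mouse alpha cells carry, stood at 135.9 and 110.1 normalized counts in controls and 251 and 198 in knockouts. Both knockout pools lay above both control pools, at 0.86 ± 0.17, the highest estimate of all the tested receptors (limma adjusted p = 0.0631), with a 95% confidence interval of 0.48 to 1.24. With all libraries limma passed it only with robust empirical Bayes (adjusted p = 0.0381), which called 1.26% of all genes. Leaving out 1 library moved the estimate between 0.69 and 1.03.

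Sstr3, the main somatostatin receptor of this tissue by level, stood at 15257 and 14249 in controls and 16152 and 15865 in knockouts, at 0.12 ± 0.05 (limma adjusted p = 0.341). The genotypes did not overlap, and the interval of 0.00 to 0.23 excluded a change as large as that estimated for Sstr2. Per kilobase, Sstr3 was 55.7 and 64.2 times Sstr2 in controls and 31.9 and 39.8 times in knockouts.

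Sstr1 stood at 48.7 to 64.4 normalized counts over the 4 libraries, with overlapping genotypes. Sstr5 (2, 3, 4 and 11 reads in control columns 2 and 3 and knockout replicates 1 and 2) and Sstr4 (0, 2, 1 and 3 reads) were below the filter. The galanin receptor Galr1 stood at 1770 and 2018 in controls and 1853 and 2110 in knockouts, and the genotypes overlapped. The neuropeptide Y receptor Npy1r stood at 46.0 and 33.1 in controls and 49.96 and 55.6 in knockouts, at 0.42 ± 0.25 (limma adjusted p = 0.4999).

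Other peptide receptors and the muscarinic receptors included the third estimate that DESeq2 called and limma did not. Oxtr, the oxytocin receptor, which couples to Gq, stood at 2029 and 1742 normalized counts in controls and 2829 and 2299 in knockouts. Both knockout pools were higher, at 0.44 ± 0.10 (limma adjusted p = 0.0950). The estimate was 0.29 without knockout replicate 1 and 0.59 without knockout replicate 2. Avpr1b, the vasopressin receptor that mouse alpha cells carry, stood at 228 and 143 in controls and 309 and 245 in knockouts. It was higher in both knockout pools at 0.61 ± 0.21 (limma adjusted p = 0.236), with 0.94 without control column 2 and 0.27 without control column 3.

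Chrm3, the muscarinic receptor through which acetylcholine acts on beta cells, stood at 3952 and 4230 in controls and 3531 and 3794 in knockouts, at -0.16 ± 0.06 (limma adjusted p = 0.265). Chrm4, a Gi-coupled muscarinic receptor, stood at 266 and 286 in controls and 303 and 340.4 in knockouts, at 0.22 ± 0.11 (limma adjusted p = 0.435). The genotypes did not overlap for either gene. The per-kilobase ratio of Chrm3 to Chrm4 was 3.43 and 3.40 in controls and 2.68 and 2.57 in knockouts.

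Chrm1 stood at 15.3 to 37.5 normalized counts, with overlapping genotypes. The melanocortin receptor Mc5r stood at 92.0 and 92.5 in controls and 111 and 105 in knockouts, at 0.23 ± 0.16 (limma adjusted p = 0.584). The cholecystokinin receptors Cckar (9, 10, 5 and 12 reads) and Cckbr (1, 5, 1 and 1 reads) and the tachykinin receptor Tacr1 (4, 4, 2 and 11 reads) were below the filter.

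Markers of alpha cells, in which mouse Sstr2 and Avpr1b are mainly made, had higher estimates in knockouts too. Of 7 such markers, all 7 had a log2 fold change above 0, with a median of 0.45. Summed, they stood at 1181190 to 1376450 normalized counts in controls and 1391720 to 1674500 in knockouts. Most of that sum was Gcg, at 1096490 to 1552090 over the libraries, so it says little about the other markers. Beta cell markers summed to 10315000 to 10820200 in controls and 10853400 to 11160900 in knockouts. Most of that sum was Ins2 and Ins1, so it too says little about the other markers. Of the 8 beta cell markers, 4 had a log2 fold change above 0, with a median of -0.01. Delta cell markers, of the cells that make somatostatin, summed to 124614 to 126505 in controls and 130154 to 142182 in knockouts. Here most of the sum was Sst, at 118131 to 134641 over the libraries. Of the 4 delta cell markers, all 4 had a log2 fold change above 0, with a median of 0.12. Rbp4 passed the limma threshold at 0.27 ± 0.05 (adjusted p = 0.0475). The part of cell composition in the receptor values was not tested.

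Adrenergic and dopamine receptors take up catecholamine signals. Adra2a, by which noradrenaline blocks insulin release, stood at 14265 and 16862 normalized counts in controls and 13704 and 14790 in knockouts. The genotypes overlapped, and the confidence interval of the log2 fold change was -0.30 to 0.05. Adrb1, a Gs-coupled receptor, stood at 72.5 and 88.7 in controls and 119 and 97.8 in knockouts, without overlap, at 0.42 ± 0.19 (limma adjusted p = 0.361).

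Adra1a lay just inside the filter, at 6.13 and 13.6 in controls and 12.5 and 9.59 in knockouts, and Cckar just outside it, at 9.20, 9.74, 5.20 and 11.5. The remaining members of this family were at the limit of detection. Drd2 had 5, 7, 7 and 6 reads, Drd1 had 3, 3, 4 and 7, Drd4 had 2, 2, 1 and 1, and Adra2c had 0, 3, 2 and 0. A count of 0 allows up to 2.88 to 3.12 normalized counts, depending on the library, from counting error alone. No difference was detectable for them at this depth.

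Lipid mediator receptors held 2 prostaglandin E2 receptors with opposite coupling, both higher in both knockout pools without passing the adjusted threshold. Ptger3, which couples to Gi, stood at 240.1 and 357 normalized counts in controls and 458 and 420.0 in knockouts, at 0.58 ± 0.17 (limma adjusted p = 0.156). Its estimate was 0.87 without control column 3 and 0.30 without control column 2. Ptger4, which couples to Gs, stood at 329 and 293 in controls and 360.1 and 407 in knockouts, at 0.30 ± 0.11 (limma adjusted p = 0.269). Its exons overlap those of Ttc33 on the opposite strand.

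S1pr1, a sphingosine-1-phosphate receptor abundant on endothelium, stood at 1549 and 1607 in controls and 1343 and 1495 in knockouts, at -0.16 ± 0.07 (limma adjusted p = 0.361). Endothelial markers summed to 24816 to 28754 normalized counts in controls and 27026 to 28933 in knockouts, so the sums overlapped. Of 7 estimates, 6 lay above 0 and none passed the limma threshold. The part of endothelial content in the S1pr1 values was not tested. The cannabinoid receptor Cnr1 (254 to 304) and the lysophosphatidic acid receptor Lpar1 (287 to 382) had overlapping genotypes.

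The remaining receptors differed little between genotypes. Adgrg1 stood at 11112 and 11680 normalized counts in controls and 11334 and 11483 in knockouts, with a confidence interval of -0.11 to 0.11. Gpr158, long classed as an orphan receptor, stood at 7465 and 7379 in controls and 7366 and 7173 in knockouts, with an interval of -0.13 to 0.07. The latrophilin Adgrl1 stood at 2725 and 2714 in controls and 2592 and 2636 in knockouts, with an interval of -0.17 to 0.06. Exons of Gpr158 and Adgrl1 overlap those of other tested genes. The tryptophan-sensing receptor Gpr142 stood at 768 and 736 in controls and 736 and 769 in knockouts, with an interval of -0.17 to 0.17. In all, 20 of the 38 tested receptors had an interval that lay within 0.5 of 0 on the log2 scale.

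The ligands, transducers and regulators of these receptors were examined in lists of 97 genes, of which 81 were tested. None passed the adjusted threshold in limma, edgeR or DESeq2, with 9 higher and 5 lower at an unadjusted limma p, or 17.3% of the 81 beside 14.1% of all tested genes. Of 23 ligand genes, 13 were tested, with 3 higher and none lower at an unadjusted p (23.1%, beside 14.1% of all tested genes) and a median log2 fold change of 0.40. Glucagon (Gcg) stood at 0.26 ± 0.14 and somatostatin (Sst) at 0.11 ± 0.07. The peptide YY gene Pyy stood at 0.21 ± 0.08 (limma adjusted p = 0.250). The pancreatic polypeptide gene Ppy, at 0.45 ± 0.19 (limma adjusted p = 0.319), reached 0.81 without control column 2 and was 0.098 without control column 3. Vip stood at 142.0 and 648 normalized counts in controls and 793 and 493 in knockouts, so control column 2 alone was low. The log2 fold change was 1.04 ± 0.55 with all libraries (limma adjusted p = 0.454) and 2.13 without control column 3. Without control column 2 it was -0.051 for Vip. Gip, Crh, Ucn2 and Avp had 0 reads in every library.

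Of 19 enzymes that make or break down ligands, 17 were tested, with 3 higher and 1 lower at an unadjusted p (23.5%, beside 14.1% of all tested genes). Th, tyrosine hydroxylase of catecholamine synthesis, stood at 1441 and 1498 normalized counts in controls and 1702 and 2389 in knockouts, at 0.46 ± 0.13 (limma adjusted p = 0.151). Its estimate was 0.70 without knockout replicate 1 and 0.21 without knockout replicate 2. Enpp2, which makes lysophosphatidic acid, stood at 0.28 ± 0.09 (limma adjusted p = 0.214), with 0.45 without control column 3 and 0.11 without control column 2. Its exons overlap those of Gm26684. The abundant enzyme genes Ddc and Entpd3 stood at -0.01 ± 0.05 and -0.04 ± 0.05. Of 6 accessory protein genes, 5 were tested and none had an unadjusted limma p under 0.05, with Ramp1 at 0.19 ± 0.10, Ramp2 at 0.18 ± 0.12 and Crcp at -0.03 ± 0.07.

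G protein subunits gave 24 tested of 25, with 3 higher and 1 lower at an unadjusted p and a median of 0.04. That is 16.7%, near the 14.1% of all tested genes. Gnas, the gene of the Gs alpha subunit, stood at 74812 and 76872 normalized counts in controls and 82113 and 84956 in knockouts, at 0.14 ± 0.06 (limma adjusted p = 0.312). Its exons overlap those of Nespas and Gm20721 on the opposite strand. Gnb4, a beta subunit, stood at 385 and 325 in controls and 479 and 484 in knockouts, at 0.44 ± 0.11 (limma adjusted p = 0.0976). Gng11 stood at 0.49 ± 0.14 (limma adjusted p = 0.160) and Gng12 at -0.06 ± 0.06.

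Of 24 arrestins, receptor kinases and RGS proteins, which switch receptor signals off, 22 were tested, with none higher and 3 lower at an unadjusted p. That is 13.6%, near the 14.1% of all tested genes. Rgs4, which speeds Gi and Gq inactivation, stood at 10549 and 8002 normalized counts in controls and 7935 and 6555 in knockouts, at -0.35 ± 0.12 (limma adjusted p = 0.246). It was -0.55 without control column 3, -0.49 without knockout replicate 1, -0.15 without control column 2 and -0.21 without knockout replicate 2. The receptor kinase gene Grk5 stood at 2412 and 2118 in controls and 1937 and 2001 in knockouts, at -0.20 ± 0.07 (limma adjusted p = 0.242). Rgs2 was uneven between the controls, with 24827 and 14416, beside 23302 and 22427 in the knockouts. Its log2 fold change was 0.27 ± 0.19 with all libraries (limma adjusted p = 0.594), 0.67 without control column 2 and -0.12 without control column 3. Rgs5 stood at 0.08 ± 0.06.

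**Figure D4:**
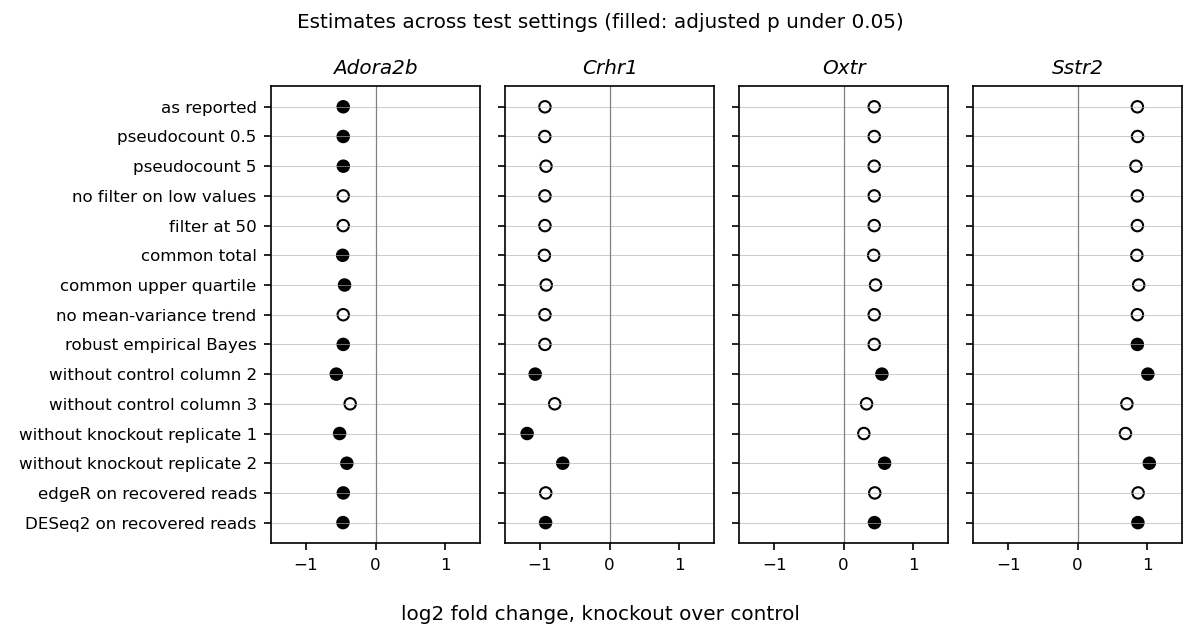
log2 fold change (x axis, knockout over control) of Adora2b, Crhr1, Oxtr and Sstr2 as reported and under 14 other settings of the test (rows); filled points have an adjusted p under 0.05. The estimates keep their sign in every setting shown, from -0.57 to -0.37 for Adora2b and from 0.69 to 1.03 for Sstr2. The filled points change from row to row, and rows without 1 library leave 1 pool in that genotype.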

How the data were processed

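Libraries of poly(A)-enriched RNA from 4 islet pools were made by Illumina protocols, per the labels. The tools that the submitters' processing notes list, without roles, are STAR 2.5.1b, DESeq2 1.22.2, featureCounts 1.6.0 and CASAVA 1.4, with the build GRCm38. For each library the authors deposited a signal per gene, which is a normalized count: reads divided by a library constant; 100% of values were whole reads within 0.01 after division by the value of 1 read. Per the file headers, the authors' table also holds log2 fold changes, a test score and p-values, of which only adjusted p-values are printed. The gene annotation and the strandedness of counting are not given in the sources used here.

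The filter left 16589 genes, those reaching 10 in 2 or more libraries. On log2(value + 1), limma 3.58.1 (R 4.3.3) was run two-sided with eBayes and a mean-variance trend, and p-values were adjusted by Benjamini-Hochberg. The pseudocount of 1 understates fold changes at low levels. Residual degrees of freedom were 2 and prior ones 6.85. With 2 pools a side, the smallest exact permutation p is 0.333. edgeR 4.0.16 and DESeq2 1.42.0 on recovered reads were alternatives; DESeq2 gave no adjusted p for 14407 genes. No column of another sample was found (0). Replicates differed beyond counting error (chi-square over degrees of freedom 10.1 and 9.85); each counts as 1 replicate. In 5 simulations of this comparison, each drawing 55487 genes, limma recovered 69.8% of genes changed 1.5-fold and 82.4% of those changed 2-fold. The draws gave genes of equal level the same spread, which real genes need not have. These shares are therefore no measure of how many real changes were missed.

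The members and lists were chosen with earlier results of these data known. Values in every library were printed for members with a p under 0.05, without overlap, or among the 12 most abundant, and ranges or reads for most others; each further list named its 2 most abundant genes and the 2 with the smallest p, with a few added because a left-out library changed their call or because they had 0 reads, chosen after their values were seen. Cell type markers are given as sums, with single markers named for the islet hormones and for stellate and delta cell markers that passed the test; a result for 1 other marker is not reported here. Lengths and coordinates are from GENCODE M21, which holds 99.4% of the identifiers, and promoter windows from RefSeq on GRCm38.p6, where 36 of 47 members matched.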

Additional observations from a re-analysis of the deposited data

How the results depend on the processing

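No paired analysis was possible because the control columns are numbered 2 and 3 and share only 1 replicate number with the knockouts. Without the mean-variance trend 0 genes were called either way (1007 higher and 834 lower at an unadjusted limma p under 0.05; other tools below). With no filter 1 was called higher and 1 lower, with a filter at 50 19 and 32, with robust empirical Bayes 85 and 124, with DESeq2 114 and 205, and with edgeR 57 and 71. Leaving out 1 library gave 58 to 207 higher and 49 to 241 lower, against 41 and 62 with all libraries. Receptors called lower numbered 0 with no filter, with a filter at 50 and without the trend (6, 6 and 2 at an unadjusted limma p), 2 with DESeq2, 1 with edgeR and 0 to 3 when a library was left out. Receptors called higher numbered 1 with robust empirical Bayes, 2 with DESeq2, 0 with edgeR and 0 to 4 when a library was left out. Genes of the other lists numbered 0 to 3 when a library was left out. The receptor median ran from -0.02 to 0.12 in those fits, below 0 without control column 2 alone. The Ggcx log2 fold change of -3.35 lost its call with no filter (limma adjusted p = 0.217), without the trend (0.329) and with robust empirical Bayes (0.294), and ran from -4.08 to -2.63 when a library was left out. The cause was not tested.

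For single receptors, 31 of 529 alternative estimates changed sign, in 15 receptors, none of them called with all libraries. Under a common total these were Adgrg1 (-0.0057), Adora1 (-0.0035), Gcgr (-0.0045), Gpr142 (-0.0068) and Cnr1 (-0.00066), and Lpar1 was 0.012 with a common upper quartile and 0.0025 with edgeR. When a library was left out the ranges were -0.034 to 0.038 for Adgrg1, -0.076 to 0.084 for Adora1, -0.11 to 0.12 for Gcgr, -0.031 to 0.033 for Gpr142, -0.12 to 0.13 for Cnr1, -0.21 to 0.20 for Lpar1, -0.024 to 0.57 for P2ry1, -0.029 to 0.16 for Galr1, -0.067 to 0.31 for Calcrl, -0.33 to 0.85 for Adcyap1r1, -0.13 to 0.17 for P2ry14, -0.22 to 0.17 for Sstr1, -0.019 to 0.29 for Crhr2, -0.14 to 0.84 for Chrm1 and -0.29 to 0.75 for Adra1a.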
